A study of Homo sapiens with 4 samples.

Results

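The genes described here are 10 myeloid and granulocyte genes taken by symbol: SPI1, CEBPE, LYZ, LAPTM5, CFD, CD33, AZU1, PRTN3, SAMSN1 and CSF3R. All 10 had an entry in the table, out of 16504 gene symbols with a value. RNA-seq was performed on 4 libraries labelled NB4, a cell line from acute promyelocytic leukemia, a disease in which granulocyte precursors stop maturing. In the control group (2 libraries, labelled NC) CEBPG was present. In the knockdown group (2 libraries, labelled CEBPG3) CEBPG was silenced, which encodes a leucine-zipper factor of the C/EBP family. The number in that label was taken to name a CEBPG short hairpin RNA, which is an assumption. Per the study methods, hairpins were delivered by lentivirus and stable cells were selected with puromycin, so each group is a selected population, and 1 hairpin stands for the knockdown. No other agent was named in the labels of either group.

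Myeloid cells are built in stages. The ETS factor PU.1, encoded by SPI1, opens the myeloid program, and members of the C/EBP family then drive granulocyte genes, with C/EBP epsilon (CEBPE) needed late, when the specific granules form. Promyelocytes fill their azurophil granules with antimicrobial proteins and serine proteases, among them azurocidin (AZU1), proteinase 3 (PRTN3) and lysozyme (LYZ), and respond to granulocyte colony-stimulating factor through its receptor, CSF3R.

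The libraries went against their label in their defining markers. Expression was given as FPKM, the number of sequenced fragments divided by transcript length and by library size, which is a level per length and can be compared between genes. Of 10 promyelocyte and granulocyte markers, 7 had values, and 5 of these stayed under 1 FPKM in each of the 4 libraries. CD33 alone was over 1 FPKM in each library, and the other marker that reached 1 FPKM in any library was CEBPE. The summed level of the 7 markers was 6.76 and 10.1 FPKM in the controls, and 12.7 and 12.3 FPKM after knockdown. Without CD33 the other 6 summed to 2.45 and 2.53 FPKM in the controls, and 2.91 and 2.86 FPKM after knockdown, so that CD33 carried most of the difference. MPO, ELANE and CTSG, which also define this stage, were not analysed here. In contrast, 16 of 18 erythroid markers were over 1 FPKM and 15 over 10 FPKM in every library, with summed levels of 8756 and 8284 FPKM in the controls, and 9729 and 9172 FPKM after knockdown. The fetal globin HBG2 had 3095 and 2890 FPKM in the controls, and 3766 and 3479 FPKM after knockdown, HBG1 was at 1539 and 1485 against 1998 and 1897 FPKM, and the embryonic globin HBE1 was at 1067 and 994 against 1153 and 1072 FPKM. HBG1 and HBG2 are near-identical copies, so the division between them is uncertain. Because of these marker levels the samples are called the libraries labelled NB4 below, and the part of the cells' lineage in the results was not tested.

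**Figure D1:**
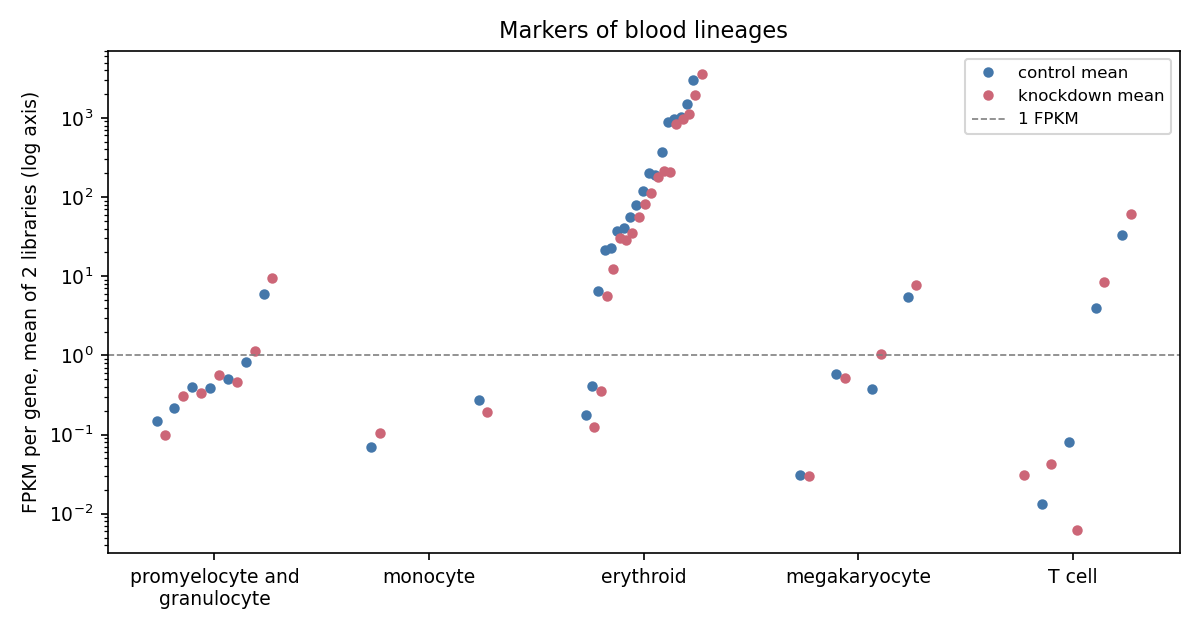
Each point is the mean FPKM of a marker gene over the 2 libraries of a group (log axis), sorted within each of 5 lineage lists, with control in blue and knockdown in red; markers without values, and means of 0, are not drawn. Promyelocyte and granulocyte markers lie at or below 1 FPKM apart from CD33 and CEBPE, while 15 of 18 erythroid markers were over 10 FPKM in every library.

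Other lineages were read in the same way. The monocyte markers with values, CD14 and CSF1R, were under 1 FPKM in each library, with CD14 between 0.187 and 0.342 FPKM and CSF1R between 0.0303 and 0.135 FPKM. The B cell markers CD22 and CD79A were also under 1 FPKM in each library. Of the megakaryocyte markers, ITGA2B, a platelet integrin, was the highest, at 5.89 and 5.02 FPKM in the controls, and 8.06 and 7.24 FPKM after knockdown. ITGB3 was at 0.371 and 0.384 against 1.17 and 0.883 FPKM, and GP1BA lay between 0.361 and 0.792 FPKM. The T cell list was uneven: CD3D was at 32.3 and 33.3 FPKM in the controls, and 66.95 and 56.3 FPKM after knockdown, and CD3G at 4.03 and 3.89 against 8.29 and 8.66 FPKM, while CD3E, CD2 and CD5 stayed under 1 FPKM in each library. The summed T cell list thus stood at 36.4 and 37.3 FPKM in the controls, and 75.4 and 65.0 FPKM after knockdown, and whether this bears on any gene below was not tested.

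CEBPG itself was at 17.1 and 18.1 FPKM in the controls, and 6.91 and 7.96 FPKM after knockdown, with no overlap between the groups. FPKM summed over gene symbols to between 345340 and 366139 in the 4 libraries, and 10875 to 10964 genes reached 1 FPKM. FPKM carries no read count, so the depth behind each value was unknown and no counting interval is given. A difference in a level can stem from fewer cells of a type or from less RNA per cell, which bulk libraries cannot tell apart.

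The 10 genes spanned more than 3 orders of magnitude in FPKM, and their order was nearly the same in both groups. LAPTM5, a lysosomal membrane protein of blood cells, was by far the highest, and ranked between 188 and 265 of all genes across the libraries. It was followed in the control libraries by SAMSN1, LYZ, SPI1, CFD and CD33, all of which were over 1 FPKM in each library. CEBPE, CSF3R, AZU1 and PRTN3 made up the low end. After knockdown the mean of SPI1 stood above that of LYZ and the mean of AZU1 above that of CSF3R, the reverse of their order in the controls. SPI1 and LYZ did not overlap in either group. CSF3R and AZU1 overlapped after knockdown and not in the controls, while CD33 came close to CFD in control 2, at 7.57 FPKM beside 7.63 FPKM for CFD in the same library.

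**Figure D2:**
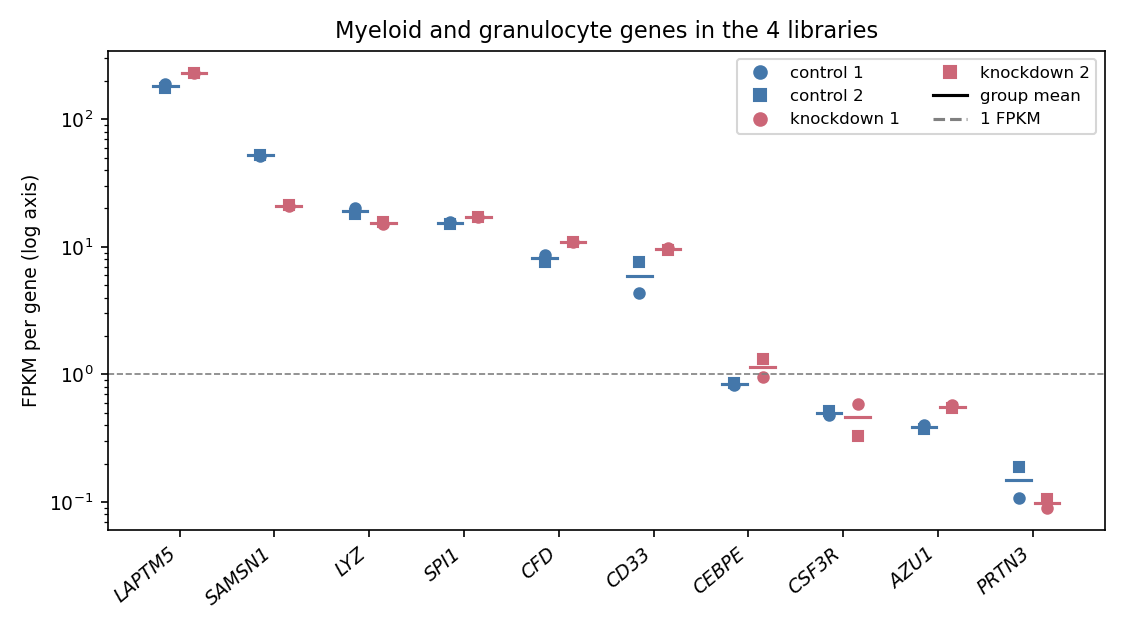
FPKM of each of the 10 genes (log axis) in the 4 libraries, with control in blue, knockdown in red, circles for replicate 1, squares for replicate 2 and short lines for group means. LAPTM5 is the highest and PRTN3 the lowest gene in each library, SAMSN1 drops in the knockdown libraries, and CSF3R has knockdown values on both sides of its control values.

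In the tests below, genes whose 4 libraries averaged 1 FPKM or more were compared on the log2(FPKM + 1) scale in limma, and a gene was called at an adjusted p under 0.05. On this scale the change of low genes is understated. Of the 10 genes, 6 passed the filter and 4 (CEBPE, CSF3R, AZU1 and PRTN3) did not. Among the 6 tested, 2 were called higher in the knockdown (LAPTM5 and CFD), 2 were called lower (SAMSN1 and LYZ) and 2 were not called (SPI1 and CD33). Over all 10968 tested genes 20.9% were called, 10.9% higher and 9.99% lower. Both knockdown libraries lay above both control libraries for 4 of the 6 and below them for the other 2. These patterns were frequent in the whole table, with 34.3% of tested genes not overlapping and higher in the knockdown and 30.5% not overlapping and lower, so non-overlap alone distinguishes none of the 6 genes. With no filter on low values, and with the highest transcript in place of the gene sum, SAMSN1 was the single call. LYZ, LAPTM5 and CFD were not called in these settings, with limma adjusted p between 0.0516 and 0.102. Their log2 differences were the same as with the filter and the gene sum, so the p-values moved and the differences did not. A permutation test on 2 against 2 libraries cannot give an exact p below 0.333, and therefore none is given. The labels do not say that replicates came from separate cultures, so the spread behind the p-values is between these libraries and may be technical. Limma also draws the variance of each gene toward a trend over all tested genes, so a p-value does not rest on that gene's replicates alone.

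SPI1 encodes PU.1, an ETS family factor that directs early myeloid commitment, and is located on chromosome 11 (47354860 to 47378547, minus strand) (GRCh38, GENCODE 44, as for the other positions of genes). Its level was 15.6 and 15.2 FPKM in the controls, and 17.1 and 17.2 FPKM after knockdown. The knockdown values were both slightly above the control values. The difference in log2(FPKM + 1) was 0.15 (standard error 0.061, limma adjusted p = 0.132), and the 95% interval of this difference, not adjusted for the number of genes, ran from 0.0013 to 0.29. SPI1 was therefore not called.

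The small difference in the SPI1 total joined transcript entries that differed in opposite directions. NM_003120 was at 5.85 and 7.47 FPKM in the controls, and 12.2 and 10.1 FPKM after knockdown, whereas NM_001080547 was at 9.76 and 7.70 against 4.83 and 7.07 FPKM. For each of these transcripts the groups did not overlap, although the replicates of a group were spread more widely than for the total. NM_003120 held 43.3% of SPI1 FPKM in the control group and 65.3% in the knockdown group. NM_003120 had the higher mean over the 4 libraries, but in both control libraries NM_001080547 was the higher one, so that NM_003120 ranked first only through the knockdown group. When SPI1 was represented by NM_003120, the log2 difference was 0.67 (limma, adjusted p = 0.0782), which was not called either. FPKM of overlapping transcripts depends on how the authors' tool divided shared reads, and the part of that division was not tested.

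CEBPE, the C/EBP member of late granulocyte maturation, lies on chromosome 14 (23117036 to 23120256, minus strand). It was at 0.818 and 0.853 FPKM in the controls, and 0.950 and 1.31 FPKM after knockdown. Both knockdown libraries were higher than both control libraries, but knockdown 2 alone passed 1 FPKM. The mean over the 4 libraries was 0.984 FPKM, just under the filter, so no test was made in the main comparison. With a filter of 0.5 FPKM in its place, the log2 difference of 0.21 had an adjusted p of 0.283 (limma).

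The azurophil granule genes were split by level. LYZ encodes lysozyme, which cuts bacterial peptidoglycan, and is located on chromosome 12 (69348381 to 69354234, plus strand). LYZ was at 20.1 and 18.1 FPKM in the controls, and 15.0 and 15.5 FPKM after knockdown. The values of the groups did not overlap, and the mean fell from 19.1 ± 1.42 to 15.3 ± 0.354 FPKM (SD, n = 2 each), or 79.9% of the controls. The log2 difference was -0.30 (standard error 0.072, limma adjusted p = 0.0289). This call was lost when any of control 1, knockdown 1 or knockdown 2 was left out, with adjusted p of 0.080, 0.140 and 0.0942 (limma).

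AZU1 and PRTN3, which encode azurocidin, an inactive serine protease homolog that kills bacteria, and proteinase 3, an active serine protease, were near the floor of the table. AZU1 was at 0.404 and 0.370 FPKM in the controls, and 0.570 and 0.547 FPKM after knockdown. PRTN3 was at 0.108 and 0.188 FPKM in the controls, and 0.0897 and 0.106 FPKM after knockdown. The groups did not overlap for either gene, with AZU1 higher and PRTN3 lower in the knockdown, but both were under the filter in every library and neither was tested in the main comparison. With no filter on low values, their log2 differences of 0.17 and -0.064 had adjusted p of 0.126 and 0.465 (limma). In each library AZU1 ranked between 11771 and 12246 and PRTN3 between 13129 and 14114 of the 16504 genes.

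AZU1 (825097 to 832018) and PRTN3 (840999 to 848175) are neighbours of CFD (859453 to 867884) on the plus strand of chromosome 19. CFD encodes complement factor D, the serine protease that cleaves factor B in the alternative complement pathway. In the RefSeq annotation of GRCh38, the span from the start of AZU1 (827837) to the end of CFD (863641) is 35.8 kb. Both genes are longer in GENCODE. The RefSeq span holds 4 genes, of which AZU1, PRTN3 and CFD were analysed here. CFD was at 8.59 and 7.63 FPKM in the controls, and 10.9 and 11.0 FPKM after knockdown. The knockdown values were close to each other and above both control values. The mean rose from 8.11 ± 0.679 to 10.9 ± 0.0521 FPKM (SD, n = 2 each), a log2 difference of 0.39 (standard error 0.077, limma adjusted p = 0.0158). The call did not hold without control 2 (log2 difference 0.32, adjusted p = 0.0505), without knockdown 1 (0.0725) or without knockdown 2 (0.0718, all limma). The value of CFD came from NM_001317335, 1 of the 2 curated mRNAs that RefSeq gives for this gene, and the other was not analysed here.

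Genes on either side of this cluster did not pass the test. PLPPR3, next to AZU1, had a log2 difference of 0.14 (limma, adjusted p = 0.234) and PTBP1, beyond it, of -0.093 (0.30). On the CFD side, MED16 had a difference of -0.0067 (limma, adjusted p = 0.981) and R3HDM4 of 0.021 (0.845), and the signs of both turned without control 2. The levels of these genes spanned from 2.41 FPKM, for MED16 in control 1, to 234.7 FPKM, for PTBP1 in control 1, so that AZU1 and PRTN3 were the lowest of the 7 genes in every library.

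The promoters of the cluster are shown because AZU1 and PRTN3, both under 1 FPKM, share the letters of a C/EBP motif that CFD lacks in the same window. That of SAMSN1 is shown because it changed most among the tested genes of the 10. Each sequence is the 250 bases before a RefSeq start on the gene's own strand (GRCh38.p14), written 5′ to 3′, with motif matches in capitals. The RefSeq starts of AZU1 (827837) and CFD (859664) lie inside the longer GENCODE spans given above. The windows of AZU1 and CFD therefore overlap those spans. The positions are chr19:827587-827836 (plus strand) for AZU1, chr19:840749-840998 (plus strand) for PRTN3, chr19:859414-859663 (plus strand) for CFD and chr21:14546316-14546565 (minus strand) for SAMSN1, the last taken before the start of the MANE Select transcript, since SAMSN1 has 4 starts in the table.
AZU1: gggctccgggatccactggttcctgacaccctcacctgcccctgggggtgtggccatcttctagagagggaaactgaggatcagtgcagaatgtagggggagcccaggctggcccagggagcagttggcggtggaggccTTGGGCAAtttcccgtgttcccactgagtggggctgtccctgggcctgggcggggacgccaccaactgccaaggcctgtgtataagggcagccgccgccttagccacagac
PRTN3: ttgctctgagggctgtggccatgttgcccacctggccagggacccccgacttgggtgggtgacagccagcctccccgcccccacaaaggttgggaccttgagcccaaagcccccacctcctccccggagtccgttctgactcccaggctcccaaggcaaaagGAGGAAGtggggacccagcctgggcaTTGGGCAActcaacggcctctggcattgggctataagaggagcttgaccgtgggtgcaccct
CFD: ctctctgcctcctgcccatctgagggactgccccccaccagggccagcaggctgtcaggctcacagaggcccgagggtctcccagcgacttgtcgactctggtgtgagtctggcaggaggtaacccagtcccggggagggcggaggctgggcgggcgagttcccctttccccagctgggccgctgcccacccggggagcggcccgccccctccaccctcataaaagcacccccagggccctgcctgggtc
SAMSN1: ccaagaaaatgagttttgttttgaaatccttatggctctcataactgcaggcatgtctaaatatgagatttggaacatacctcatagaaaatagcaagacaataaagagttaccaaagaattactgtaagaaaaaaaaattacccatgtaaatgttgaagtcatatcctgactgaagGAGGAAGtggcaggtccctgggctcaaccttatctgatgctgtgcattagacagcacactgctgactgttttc

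Motifs were searched on both strands as TTGCNNAA for C/EBP, TGATGNAA for a C/EBP and ATF composite and GAGGAAG for PU.1, where N is any base. The C/EBP letters were found in AZU1, 111 bases before the start, and in PRTN3, 62 bases before the start, both as TTGGGCAA on the reverse strand. PRTN3 also held the PU.1 letters 88 bases before the start, and SAMSN1 held them 73 bases before the start. None of these matches overlapped another. Of the 10 genes, 8 were in the promoter table, with 12 starts. The C/EBP letters were in 3 of the 12 (AZU1, PRTN3 and 1 start of CSF3R), against 9.05% of all 35116 promoters of this length. The PU.1 letters were in 5 of the 12, in CD33, CEBPE, CSF3R, PRTN3 and SAMSN1, against 11.2% of all promoters, and the composite letters were in none of the 12, against 3.14%. A match describes letters and not binding, which was not measured in these libraries.

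CSF3R, the receptor that carries the granulocyte colony-stimulating factor signal, lies on chromosome 1 (36466043 to 36483278, minus strand). It was at 0.477 and 0.521 FPKM in the controls, and 0.588 and 0.330 FPKM after knockdown. It was the 1 gene of the 10 whose groups overlapped, with the knockdown values on both sides of the control values. Among all tested genes, 34.3% did not overlap and were higher in the knockdown, and 30.5% did not overlap and were lower. No such share was taken over genes under the filter. With no filter, the log2 difference of -0.044 had an adjusted p of 0.834 (limma). NM_000760 was at 0.382 and 0.169 FPKM in the controls and was listed at 0 in both libraries of the knockdown. NM_172313 was listed at 0 in both libraries of the control group and was at 0.454 and 0.231 FPKM after knockdown. NM_156039 was between 0.0953 and 0.351 FPKM in the 4 libraries. These transcripts were not tested.

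**Figure D3:**
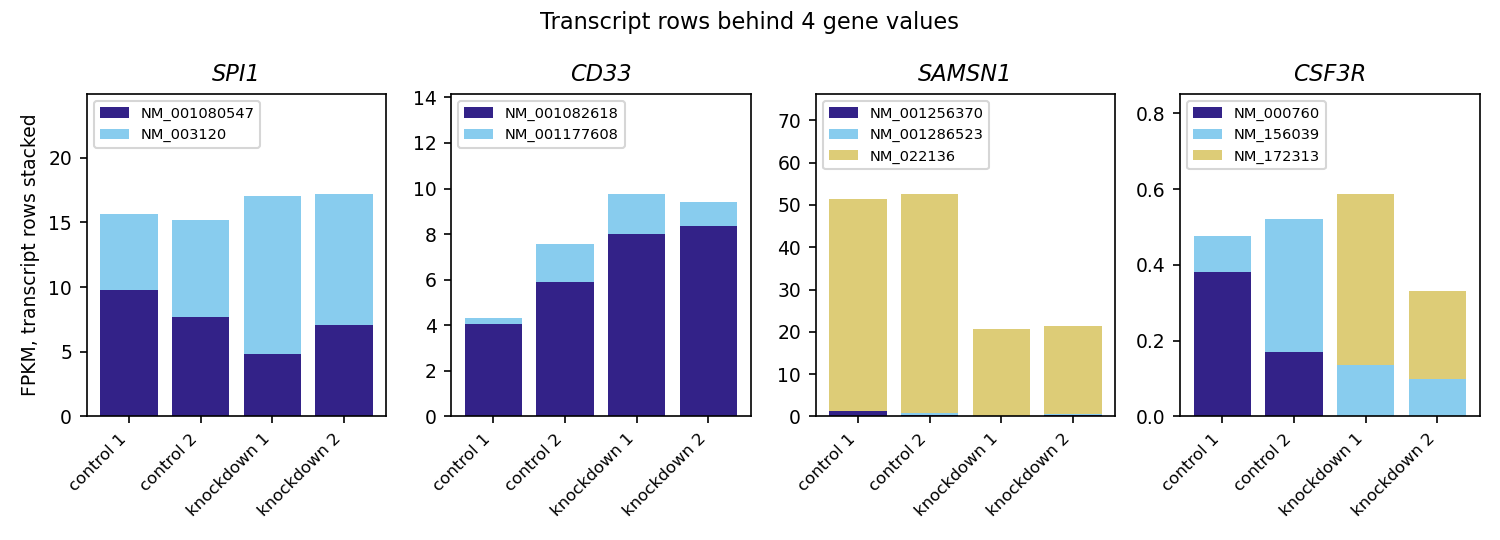
FPKM of each transcript entry (stacked bars, linear axis from 0, scale differing by panel) in the 4 libraries for SPI1, CD33, SAMSN1 and CSF3R. The SPI1 total is nearly level while NM_003120 is larger in the knockdown, SAMSN1 is almost all NM_022136, and the CSF3R entries NM_000760 and NM_172313 are each at 0 in both libraries of a group.

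CD33, a sialic acid-binding receptor of myeloid cells and the target of an antibody-drug conjugate used in acute myeloid leukemia, lies on chromosome 19 (51225064 to 51243860, plus strand). It was at 4.31 and 7.57 FPKM in the controls, and 9.77 and 9.41 FPKM after knockdown. Both knockdown libraries were higher, but the control libraries differed more from each other than in any of the other 5 tested genes on the log2 scale. The means were 5.94 ± 2.31 and 9.59 ± 0.256 FPKM (SD, n = 2 each), and the log2 difference of 0.65 had a standard error of 0.20 and a limma adjusted p of 0.0603, so CD33 was not called. With a term for the replicate number added to the fit, which no label calls for, it was called (limma, adjusted p = 0.00548). The size depended on the control library that was kept: without control 2 the difference was 1.00 (limma, adjusted p = 0.00256), and without control 1 it was 0.31 (0.0567). CD33 was given by NM_001082618, with 84.7% of its FPKM, and NM_001177608. NM_001082618 was at 4.04 and 5.90 FPKM in the controls, and 8.0 and 8.34 FPKM after knockdown, and NM_001177608 at 0.268 and 1.67 against 1.77 and 1.06 FPKM. RefSeq gives 3 curated mRNAs for CD33, and the third was not analysed here, so the total covers 2 of them.

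LAPTM5, on chromosome 1 (30732469 to 30757774, minus strand), encodes a lysosomal transmembrane protein of blood cells that takes part in the turnover of immune receptors. It was at 189 and 175 FPKM in the controls, and 230.2 and 232 FPKM after knockdown. Both knockdown libraries lay above both control libraries and close together. The mean rose from 182 ± 9.76 to 231 ± 1.49 FPKM (SD, n = 2 each), which is 1.27 times the control mean, and the log2 difference was 0.34 (standard error 0.062, limma adjusted p = 0.0123). Without knockdown 1 or knockdown 2 the difference stayed at 0.35 and 0.34, with adjusted p of 0.0967 and 0.0972 (limma), so that the call needed both.

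SAMSN1, on chromosome 21 (14485228 to 14658821, minus strand), encodes an adaptor protein with SH3 and SAM domains that is found in blood cells and dampens signalling in B cells. It was at 51.4 and 52.7 FPKM in the controls, and 20.7 and 21.4 FPKM after knockdown. The replicates differed little and the groups lay far apart. The mean fell from 52.0 ± 0.910 to 21.0 ± 0.462 FPKM (SD, n = 2 each), or 40.4% of the controls, beside 42.2% for CEBPG. The log2 difference was -1.27 (standard error 0.058, limma adjusted p = 0.00035), with a 95% interval from -1.40 to -1.13. It was the 15th lowest log2 difference of the 10968 tested genes. SAMSN1 was called under all 12 alternative settings that were run, with differences from -1.30 to -1.25. The transcript NM_022136 held 98.1% of SAMSN1 FPKM and went from 50.04 and 51.9 to 20.7 FPKM in both knockdown libraries. The other entries, NM_001256370 and NM_001286523, were at most 1.28 FPKM in any library. RefSeq gives 7 curated mRNAs for SAMSN1, of which 3 had values here.

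**Figure D4:**
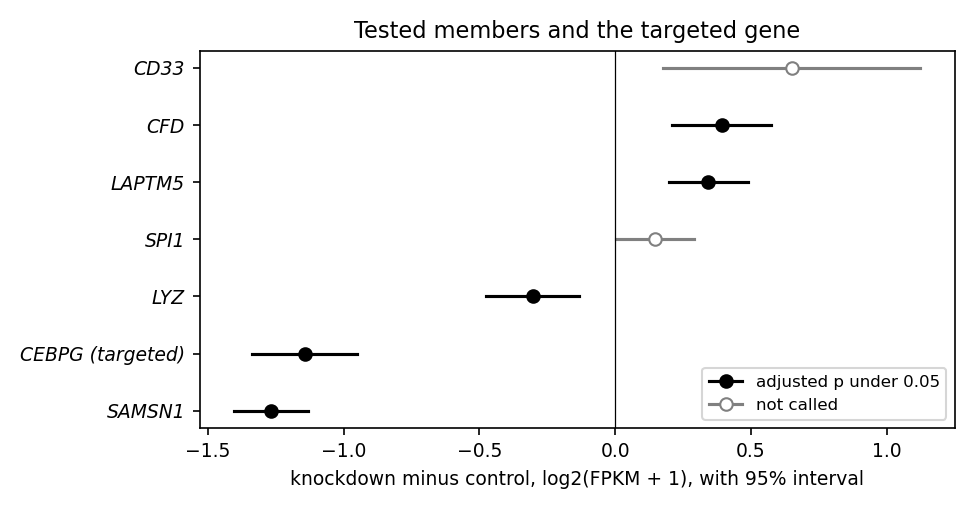
Difference between knockdown and control in log2(FPKM + 1) with its 95% interval, not adjusted for the number of genes, for the 6 tested genes and for CEBPG, the targeted gene; filled points have an adjusted p under 0.05. SAMSN1, at -1.27, lies beside CEBPG, at -1.14, while the other 5 genes lie between -0.30 and 0.65.

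To place the 10 genes among others of their kind, 7 lists with 117 symbols in all, the 10 genes included, were read in the same fit. Of these symbols 38 passed the filter, and 11 were called, 7 higher and 4 lower, where 20.9% of all tested genes were called. The median log2 difference of the 38 was 0.11, beside 0.015 over all tested genes, with 29 above 0 and 9 below, beside 5782 above 0 and 5186 below over all tested genes. The 11 calls include KIT, which passed the filter only through the knockdown group. Without the 10 genes, 32 were tested, 5 were called higher and 2 lower, and the median was 0.099.

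Among 12 tested regulators of myeloid transcription, 3 were called higher and 1 lower, with a median of 0.13. ID2, an inhibitor of helix-loop-helix factors, was at 8.99 and 8.27 FPKM in the controls, and 15.6 FPKM in both knockdown libraries (log2 difference 0.79, limma adjusted p = 0.00136). ID1, of the same family, rose from 42.2 and 33.5 to 56.4 and 51.1 FPKM (0.50, 0.0223). EGR1, an immediate early zinc-finger factor, rose from 11.1 and 11.4 to 17.5 and 17.6 FPKM (0.60, 0.00215). MEIS1, a homeobox factor of stem and progenitor cells, fell from 2.33 and 2.43 to 1.70 and 1.13 FPKM (-0.50, 0.0437). ID1 and ID2 act by holding back other factors, and EGR1 is induced by many signals, so these are not genes that define granulocytes. The call of MEIS1 was lost without control 1 (limma, adjusted p = 0.0893), control 2 (0.123) or knockdown 2 (0.159), and that of ID1 without either knockdown library (0.114 and 0.0570).

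Granule genes other than the 10 that passed the filter were not called. In the azurophil list 5 genes were tested, with a median of 0.029 and LYZ as the single call. CD63, a granule and lysosome membrane tetraspanin, was at 231 and 213 FPKM in the controls, and 253 and 235 FPKM after knockdown (log2 difference 0.14, limma adjusted p = 0.199). Leaving out 1 library, the CD63 difference ranged from 0.078 to 0.20. GUSB, a lysosomal glucuronidase, was at 30.8 and 27.6 against 30.1 and 29.5 FPKM (0.029, 0.80), a direction that turned without control 2. In the list of specific and gelatinase granules CFD was the 1 gene over the filter. TCN1, a vitamin B12-binding protein of the specific granules, was at 0.679 and 0.654 FPKM in the controls, and 0.183 and 0.129 FPKM after knockdown, and PGLYRP1 lay between 0.138 and 0.403 FPKM. Both were under the filter. With no filter, TCN1 was called lower, with a log2 difference of -0.53 (limma, adjusted p = 0.0277), and PGLYRP1 was not called (-0.12, 0.582). CRISP3, another protein of the specific granules, was at 0.30 and 0.365 FPKM in the controls and was at 0.0751 FPKM and listed at 0 after knockdown, and it was also called lower with no filter (-0.36, limma adjusted p = 0.0485).

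The phagocyte NADPH oxidase list had 3 tested genes, none of them called by limma, with a median of 0.092 and 1 (CYBC1) at an unadjusted p under 0.05. Such an unadjusted p was common, at 4057 of all 10968 tested genes. CYBA, a subunit of the membrane cytochrome, was high, at 217 and 188 FPKM in the controls, and 200.2 and 163 FPKM after knockdown (log2 difference -0.16, limma adjusted p = 0.338). RAC2, a small GTPase of the complex, was at 74.8 and 68.0 against 77.2 and 75.0 FPKM (0.092, 0.353), and CYBC1, a chaperone of the cytochrome, at 23.1 and 22.7 against 26.7 and 26.2 FPKM (0.20, 0.0532). CYBC1 was called higher with median-ratio scaling, at 0.18 (limma, adjusted p = 0.0449). Leaving out 1 library, the differences ranged from -0.31 to -0.013 for CYBA and from 0.024 to 0.16 for RAC2.

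Of the growth factor and cytokine receptors 3 were tested, with a median of 0.35. KIT, the receptor of stem cell factor, rose from 0.920 and 1.07 to 1.76 and 1.81 FPKM (log2 difference 0.48, limma adjusted p = 0.0265), and this call did not hold without control 1, knockdown 1 or knockdown 2 (0.0795 to 0.107). The control mean of KIT, 0.996 FPKM, was under 1 FPKM, so KIT passed the filter only through the knockdown group, and with no filter it was not called (limma, adjusted p = 0.0563). IFNGR1 was at 7.34 and 6.46 against 5.75 and 5.22 FPKM (-0.28, 0.0648) and IL10RA at 2.38 and 1.61 against 2.65 and 2.92 FPKM (0.35, 0.117). The IL10RA difference depended on the control library that was kept, at 0.54 without control 1 and 0.165 without control 2. IFNGR1 was called with median-ratio scaling and with columns brought to one sum, at -0.30 in both (limma, adjusted p = 0.0434 and 0.0392). Of 13 myeloid surface proteins with values, 10 were under 1 FPKM in every library. The 3 tested (CD33, FCGR2A and FUT4) were not called by limma, with a median of 0.070 and 1 (CD33) at an unadjusted p under 0.05. That threshold was met by 4057 of all 10968 tested genes. FCGR2A, an Fc receptor, was at 14.7 and 13.4 against 14.1 and 14.7 FPKM, and FUT4, which makes the CD15 epitope, at 7.67 and 6.74 against 7.34 and 7.86 FPKM. The signs of both differences turned without control 2.

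Among 11 tested leukocyte adaptors and membrane proteins 2 were called higher and 2 lower, with a median of 0.11. Besides SAMSN1 and LAPTM5, the called genes were LYN and CD37. LYN, a Src family kinase of blood cells, fell from 30.03 and 29.8 to 13.5 and 14.9 FPKM (log2 difference -1.02, limma adjusted p = 0.000781). CD37, a leukocyte tetraspanin, rose from 6.44 and 5.02 to 7.54 and 8.32 FPKM (0.41, 0.0438), and its call was lost without control 2, where the difference was 0.26 (0.132), and without knockdown 1 (0.0939) or knockdown 2 (0.167).

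**Figure D5:**
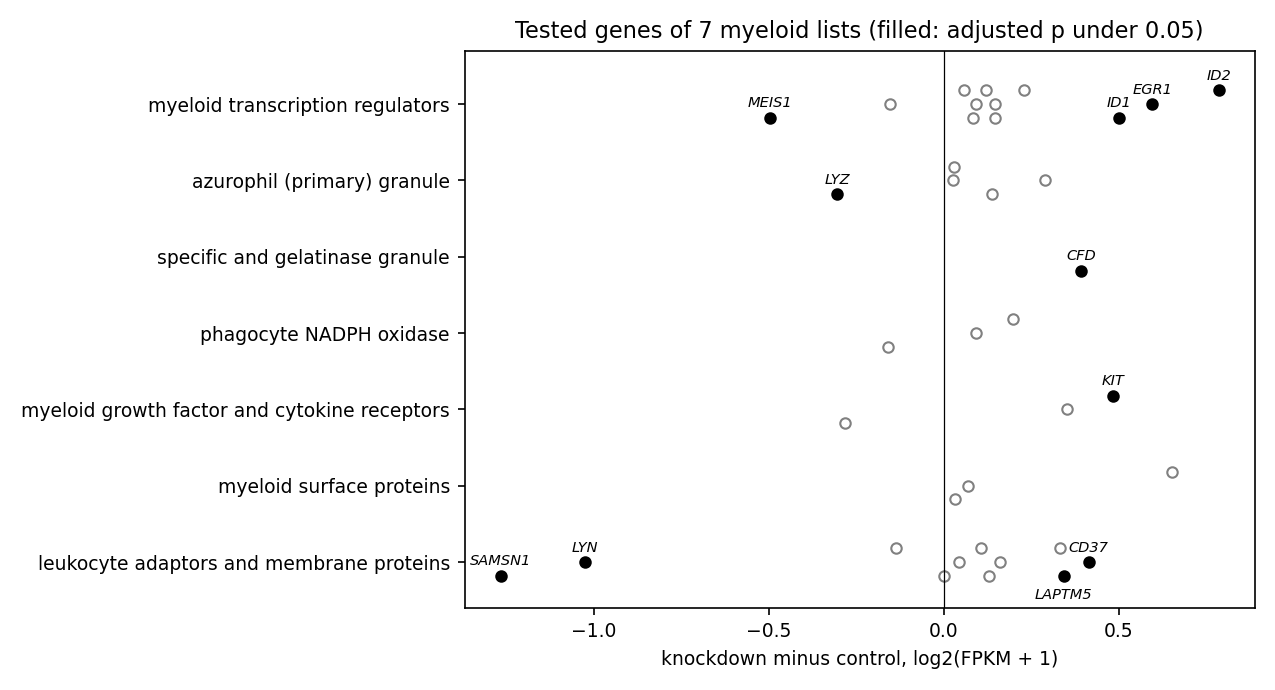
Difference between knockdown and control in log2(FPKM + 1) for the tested genes of the 7 myeloid lists, with filled points and names for an adjusted p under 0.05; vertical offsets within a list only separate points. SAMSN1 and LYN lie below -1, while the 7 genes called higher lie between 0.34 and 0.79.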

How the data were processed

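Per the labels, sequencing libraries of total RNA were prepared with the TruSeq kit of Illumina. The submitters' processing notes name HISAT2 2.0.5 and hg38. The authors deposited 1 table of FPKM values per RefSeq transcript. Its quantifier and annotation release were not given in the sources used here. Of 29265 entries, 183 held no value and 164 no symbol, and these were left out. The other 28918 were summed to 16504 symbols. Low values were examined for whole reads: among 2798 genes with 1 transcript and under 0.5 FPKM in both control libraries, the most common ratio between these libraries made up 1.14%, so whole reads were not recovered.

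Genes averaging 1 FPKM or more were compared as log2(FPKM + 1) in limma 3.58.1 (R 4.3.3), using trended empirical Bayes moderation and 2-sided p-values adjusted by Benjamini and Hochberg's method over 10968 genes, and no replicate block. The study names a test for read counts, which FPKM do not allow. The script was tested on simulated data. Gene positions are from GENCODE 44, whose build matches hg38, and promoters and curated mRNAs from RefSeq.

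The 10 genes, the 7 myeloid lists, the 6 marker lists, the motifs and the rule for names were chosen with earlier results of these data known. Named were the 10 genes, CEBPG, genes beside the AZU1 to CFD cluster, per myeloid list at most 4 called genes by size (or, with fewer than 2 called, the 3 highest), and per marker list the 3 highest. CD2, CD3E, CRISP3, LCP1 and PTPRC were named after their values were seen.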

Additional observations from a re-analysis of the deposited data

How the results depend on the processing

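Alternatives were a pseudocount of 0.1, a filter of 0.5 FPKM, no filter, a replicate block, median-ratio scaling, the highest transcript in place of the gene sum, columns brought to one sum, untrended moderation, and each library left out in turn. The 2288 calls over all genes (1192 higher and 1096 lower) became 882 (426 and 456) with no filter and 579 (293 and 286) with the highest transcript. Without single libraries they ranged from 825 to 1925, with 406 to 1207 higher and 419 to 915 lower: 1925 without control 1, 1612 without control 2, 825 without knockdown 1 and 838 without knockdown 2. Such fits rest on fewer libraries, and a lone library of a group is assumed to vary like the other group.

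Of the 10 genes, 6 were tested and 4 of these were called, where 2288 of all 10968 tested genes were called. With no filter and with the highest transcript 1 was called, with 0 higher and 1 lower, and SAMSN1 was that call. Calls over all genes also fell in these settings, to 882 of 16504 with no filter and 579 of 10751 with the highest transcript. Leaving out 1 library gave 1 to 4 calls, with 0 to 2 higher and 1 to 2 lower; without knockdown 1 or without knockdown 2 SAMSN1 alone remained. The directions of the 6 tested genes were the same under all 12 alternatives. The adjusted p (limma) ranged from 0.00917 to 0.140 for LYZ, 0.000336 to 0.0972 for LAPTM5, 0.00375 to 0.0786 for CFD and 5.61e-07 to 0.021 for SAMSN1. Among the 117 symbols of the myeloid lists, the 11 calls became 6 with no filter, of which 4 were among the 11 and 2 (TCN1 and CRISP3, both lower) were not, and 5 with the highest transcript, of which 4 were among the 11 and IL10RA was not (0.87, limma adjusted p = 0.044), and 4 to 10 without single libraries.

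The labels tie the replicate numbers to no shared culture or batch. The deviations of libraries with the same number correlated at 0.101 across genes. With the replicate block 3440 genes were called (1818 higher), and 19 of the list symbols. These were the 11 and another 8, among them CD33 (0.65, limma adjusted p = 0.00548), CYBC1 (0.20, 0.0308), CD63 (0.14, 0.0228), LCP1 (0.16, 0.0436) and PTPRC (0.33, 0.0236), higher, and CYBA (-0.16, 0.0166) and IFNGR1 (-0.28, 0.0245), lower. A block on 4 libraries leaves less of each gene's own replicates to estimate its spread. The CD33 replicates moved in opposite directions, from 4.31 to 7.57 FPKM in the controls and from 9.77 to 9.41 FPKM after knockdown. PTPRC was also called without control 2 (0.48, 0.0195). Some differences that were not called changed sign. Leaving out 1 library, they ranged from -0.047 to 0.105 for GUSB, -0.035 to 0.0977 for FCGR2A, -0.011 to 0.151 for FUT4, -0.266 to 0.25 for MED16 and -0.046 to 0.0874 for R3HDM4, with the other sign without control 2 (MED16 also without knockdown 2, 0.012). With the highest transcript GUSB was at -0.13 and PLPPR3 at -0.039, and with columns brought to one sum R3HDM4 was at -0.0013. Unknown depth limits all values under 1 FPKM.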
